A study of Mus musculus with 12 samples.

Results

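Slc13a5 encodes the sodium-coupled citrate carrier of the plasma membrane, and its transcript was examined in mouse liver together with those of 3 related carriers, Slc13a2, Slc13a3 and Slc25a1. The members were every probe set annotated to each of these genes alone, which gave 1 probe set per gene, 4 of the 19938 genes measured under a single symbol. Slc13a5 itself was chosen by its intensity in these same arrays, high in knock-in livers on the control diet and low on the restricted diet. Its levels are therefore a description with no test, while the other carriers were taken for their relation to it and were tested. They too were chosen with earlier results of these data known, so their p-values are not free of that choice.

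Total RNA from frozen liver was measured on 12 arrays of the Affymetrix Mouse Gene ST type, which carry many short probes for each gene, 3 arrays to a group. KI_MR livers came from mice homozygous for the Lmna G609G knock-in (the allele of a mouse model of Hutchinson-Gilford progeria) that were fed a methionine-restricted diet. KI_CD livers came from knock-in mice on a control diet, WT_MR livers from wild-type mice on the restricted diet and WT_CD livers from wild-type mice on the control diet. All mice were C57BL/6N males of 110 days, put on their diets at 7 weeks and fasted for 6 hours, and all groups received solid and crushed pellets together. The allele is carried in every tissue, so differences between livers need not arise in the liver. Nothing in the labels ties each array to an animal of its own, so p-values measure only how far these samples spread. In whole liver, fewer cells of a type and less RNA per cell cannot be told apart.

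Hepatocytes take up citrate from the blood through Slc13a5, and in the cytosol ATP citrate lyase (Acly) splits citrate into acetyl-CoA, the precursor of fatty acids and sterols. The other supply of cytosolic citrate is the mitochondrion, from which Slc25a1 exports citrate in exchange for malate. Slc13a3 and Slc13a2 carry dicarboxylates such as succinate into cells, Slc13a2 chiefly in kidney and intestine. Lower activity of Indy, the fly relative of Slc13a5, has been linked to longer life, and mice without Slc13a5 resist weight gain on a rich diet. Nuclear receptors and hormones are reported to raise the gene: PXR and interleukin-6 through STAT3 in human hepatocytes, the aryl hydrocarbon receptor (AhR) and glucagon through CREB in rat hepatocytes.

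RefSeq lists a pair of start windows for Slc13a5 on the minus strand of chromosome 11 (GRCm38.p6), each reaching from 250 bases before a start to 50 after it. They are shown because they were searched for short motifs, among them those of AhR and CREB, 2 of these reported regulators. Motifs of PXR and STAT3 were not searched. The windows lie at chr11:72267112-72267411 and chr11:72266555-72266854, and capitals mark a motif match.
Slc13a5 window 1: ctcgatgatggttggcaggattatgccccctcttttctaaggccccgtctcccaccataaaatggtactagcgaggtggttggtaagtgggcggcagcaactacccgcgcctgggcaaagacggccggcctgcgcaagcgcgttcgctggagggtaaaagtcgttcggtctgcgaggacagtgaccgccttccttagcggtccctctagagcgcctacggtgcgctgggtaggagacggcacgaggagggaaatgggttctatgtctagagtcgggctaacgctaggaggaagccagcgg
Slc13a5 window 2: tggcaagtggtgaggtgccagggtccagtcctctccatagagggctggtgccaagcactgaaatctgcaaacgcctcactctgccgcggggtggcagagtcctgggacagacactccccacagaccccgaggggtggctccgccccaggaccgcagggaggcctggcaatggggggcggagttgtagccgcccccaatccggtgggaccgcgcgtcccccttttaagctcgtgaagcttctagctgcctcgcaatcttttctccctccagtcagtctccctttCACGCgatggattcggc
Both strands were searched for the core of the AhR element (GCGTG), the half-site of the CREB element (TGACG), the amino acid response element core (TGATGNAA), the antioxidant element (TGACNNNGC) and the E-box (CACGTG). Window 1 held none of these motifs, and window 2 held a single AhR core on the opposite strand, 34 bases after the start. The AhR core occurs in 32.4% of 32851 such mouse windows, the CREB half-site in 20.8%, the amino acid element in 4.0%, the antioxidant element in 12.4% and the E-box in 7.2%. A match is only a match of letters, and its absence says nothing about binding outside the window.

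The Slc13a5 probe set had intensities of 56, 68 and 66 units in KI_MR livers and of 164, 191 and 131 units in KI_CD livers. In WT_MR livers it had 67, 80 and 69 units, and in WT_CD livers 73, 71 and 85 units. All 3 KI_CD arrays stood above all other arrays, and the remaining groups lay close together. The group means were 63.3 ± 6.4 units in KI_MR, 162.0 ± 30.0 in KI_CD, 72.0 ± 7.0 in WT_MR and 76.3 ± 7.6 in WT_CD (SD, n = 3 each).

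**Figure D1:**
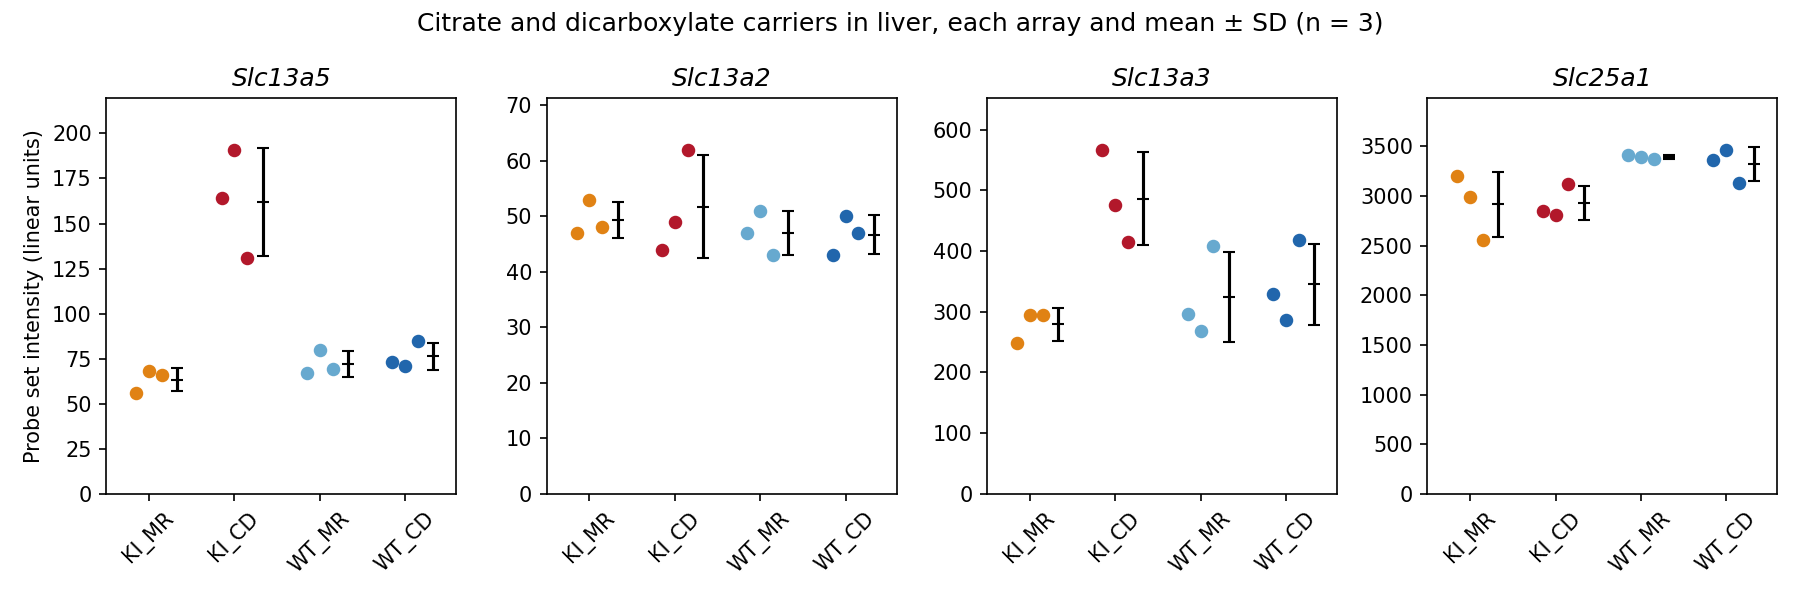
Linear probe set intensity of Slc13a5, Slc13a2, Slc13a3 and Slc25a1 in each liver array (points) with the mean and SD of each group of 3 (black), each gene on its own axis from 0. Slc13a5 lay between 131 and 191 units in KI_CD and between 56 and 85 units in all other arrays, while Slc25a1 was between 2558 and 3467 units throughout.

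The order of the Slc13a5 levels was KI_CD, WT_CD, WT_MR and KI_MR from high to low. The WT_CD and WT_MR arrays overlapped, as did the WT_MR and KI_MR arrays. KI_MR livers, at 56 to 68 units, lay just below the 71 to 85 units of WT_CD livers, a difference of -0.27 ± 0.14 on the log2 scale (estimate ± SE; 95% interval -0.57 to 0.03). Groups of 3 arrays that do not overlap in this direction are common here, with 16.7% of all genes lower in every KI_MR array than in any WT_CD array.

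KI_CD livers had 2.1-fold more Slc13a5 signal than WT_CD livers, a log2 difference of 1.07 ± 0.14 (interval 0.77 to 1.37). KI_MR livers had 2.54-fold less than KI_CD livers, a log2 difference of -1.34 ± 0.14 (interval -1.64 to -1.04). These estimates ranked 41 from the highest and 30 from the lowest of 19938 genes. The table holds no detection call or background measure, and the 56 to 85 units of the other groups lie near or below the array medians of 82 to 90 units, so whether those groups were above background is not known. The folds are ratios of intensities as deposited. Both comparisons use the same KI_CD arrays, so their opposite signs are not separate observations.

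In wild-type livers the diet went with a small difference, WT_MR minus WT_CD being -0.08 ± 0.14 on the log2 scale (interval -0.39 to 0.22). On the restricted diet, KI_MR minus WT_MR was -0.19 ± 0.14 (interval -0.49 to 0.12). The diet effect in knock-in livers minus that in wild-type livers was -1.26 ± 0.19 on the log2 scale (interval -1.69 to -0.83). The gene was chosen for this pattern, so the Slc13a5 intervals describe the spread and are no test. In the interaction, 0 of 19938 genes passed the adjusted threshold of 0.05. Averaged over the diets, KI minus WT was 0.44 ± 0.10, and averaged over the genotypes, MR minus CD was -0.71 ± 0.10.

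The lowest KI_CD array exceeded the highest of the other 9 arrays by 0.62 on the log2 scale for Slc13a5. Of all genes, 186 (0.933%) had every KI_CD array above the other 9, and Slc13a5 had the widest gap of them. The next gaps were 0.42 for Slc43a1, a carrier of neutral amino acids, 0.38 for Nnmt, which methylates nicotinamide with S-adenosylmethionine, and 0.38 for Agxt, the peroxisomal alanine-glyoxylate aminotransferase. The gene was chosen for this pattern, so the rank describes it and supports nothing further.

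**Figure D2:**
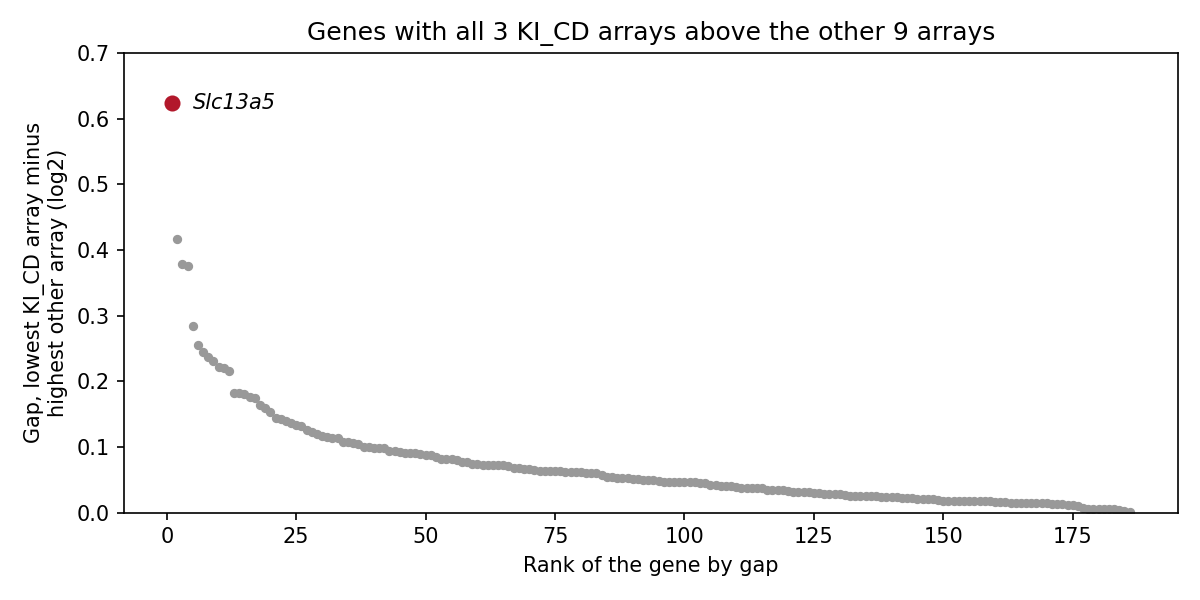
Gap between the lowest KI_CD array and the highest of the 9 other arrays (log2, vertical axis) for the 186 genes whose 3 KI_CD arrays were above all others, ordered by the gap (horizontal axis, rank). Slc13a5 (red) had a gap of 0.62, and the next gene, Slc43a1, of 0.42.

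Slc13a3, the high-affinity dicarboxylate carrier, also had its highest mean in KI_CD. It had 248, 295 and 295 units in KI_MR livers, 567, 475 and 415 in KI_CD, 296, 269 and 409 in WT_MR and 330, 287 and 418 in WT_CD. Every KI_MR array was below every KI_CD array, as it was for 6.99% of all genes, while a WT_CD array of 418 units overlapped the KI_CD range. KI_MR minus KI_CD was -0.79 ± 0.18 on the log2 scale (interval -1.19 to -0.40, limma adjusted p = 0.158). KI_CD minus WT_CD was 0.50 ± 0.18 (interval 0.10 to 0.89, adjusted p = 0.348), and WT_MR minus WT_CD was -0.09 ± 0.18 (adjusted p = 0.996). None of these passed the threshold of 0.05 after Benjamini-Hochberg adjustment over all genes. In both knock-in contrasts the Slc13a3 estimate had the sign of Slc13a5 and was the smaller of the pair.

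Slc25a1, the mitochondrial citrate exporter, did not share the pattern. It had 3197, 2992 and 2558 units in KI_MR livers, 2846, 2808 and 3123 in KI_CD, 3411, 3391 and 3371 in WT_MR and 3364, 3467 and 3129 in WT_CD. The knock-in arrays lay on the low side on either diet, without overlap between KI_CD and WT_CD or between KI_MR and WT_MR. Such separation downward held for 10.4% of genes between KI_CD and WT_CD and for 8.82% between KI_MR and WT_MR. KI_CD minus WT_CD was -0.18 ± 0.09 on the log2 scale (adjusted p = 0.454), and KI_MR minus WT_MR was -0.22 ± 0.09 (adjusted p = 0.269). Averaged over the diets, KI minus WT was -0.20 ± 0.06 (interval -0.34 to -0.07, adjusted p = 0.0982), short of the threshold. KI_MR minus KI_CD was -0.01 ± 0.09 (interval -0.20 to 0.18).

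Slc13a2, a carrier best known from kidney and gut, was dim and alike in all groups. It had 47, 53 and 48 units in KI_MR, 44, 49 and 62 in KI_CD, 47, 51 and 43 in WT_MR and 43, 50 and 47 in WT_CD. Its estimate was 0.13 ± 0.12 for KI_CD minus WT_CD (adjusted p = 0.659) and -0.05 ± 0.12 for KI_MR minus KI_CD (adjusted p = 0.999). The remaining members of the family are the sulfate carriers, of which Slc13a1 lay at 23 to 25 units in every array and Slc13a4 at 70 to 93 units.

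With limma, 0 of these 3 related carriers passed the adjusted threshold in any contrast. Over all genes the share that passed was 0.0802% in KI_CD minus WT_CD, 0.176% in KI_MR minus KI_CD, 0.326% in WT_MR minus WT_CD and 0.471% in KI_MR minus WT_MR. It was 2.98% in KI_MR minus WT_CD, 2.81% in the averaged genotype contrast, 1.21% in the averaged diet contrast and 0.0% in the interaction. Calls were thus rare among all genes, and the carriers' 0 of 3 is near that background. At an unadjusted p under 0.05, Slc13a3 was the 1 carrier of 3 in KI_CD minus WT_CD (11.2% of all genes), in KI_MR minus KI_CD (7.78%), in the interaction (4.13%, 824 genes) and in the averaged diet contrast (10.9%). Slc25a1 was the 1 of 3 in KI_MR minus WT_MR (14.1%), in KI_MR minus WT_CD (19.1%) and in the averaged genotype contrast (22.0%). None of the 3 was there in WT_MR minus WT_CD (8.19%).

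**Figure D3:**
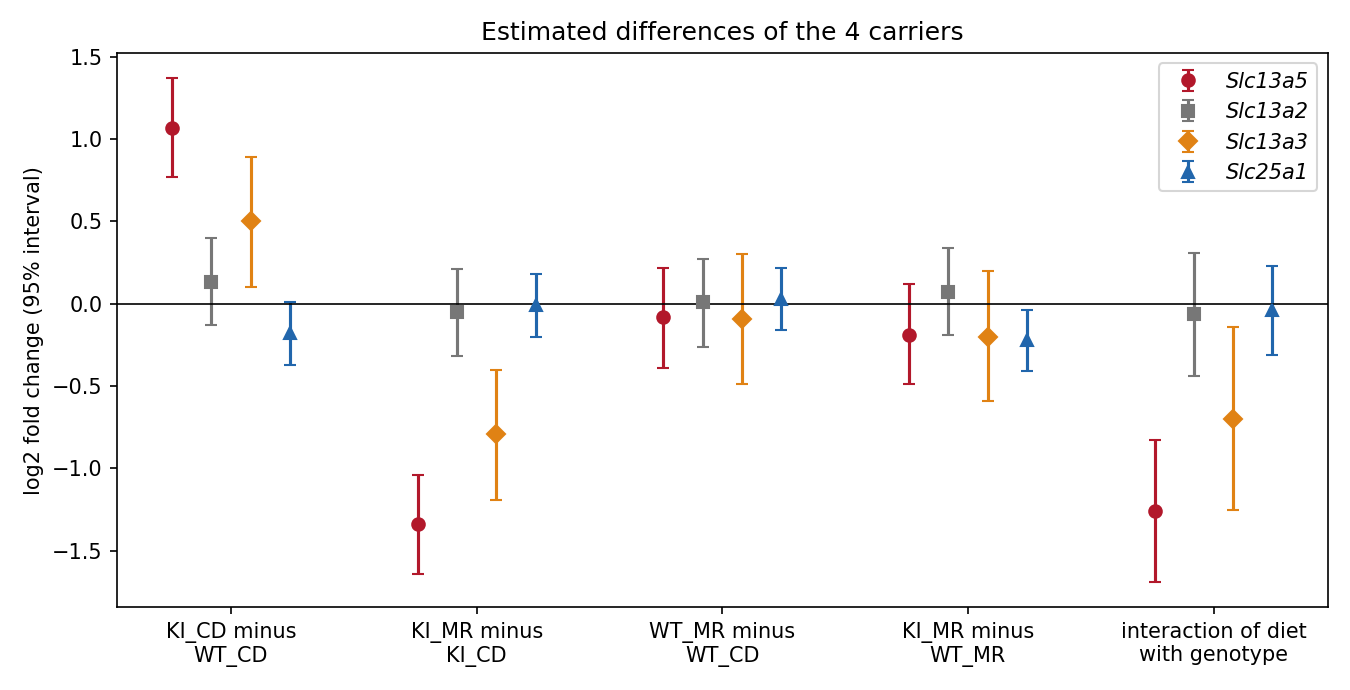
Estimated log2 differences of Slc13a5 (circles), Slc13a2 (squares), Slc13a3 (diamonds) and Slc25a1 (triangles) in 5 contrasts, with 95% intervals from the limma model of 12 arrays. Slc13a5 stood at 1.07 in KI_CD minus WT_CD and at -1.34 in KI_MR minus KI_CD, Slc13a3 at 0.50 and -0.79, and the other carriers between -0.22 and 0.13.

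The start window of Slc13a3 is given for comparison, since it was the carrier nearest to Slc13a5 in pattern. It lies on the minus strand at chr2:165473148-165473447.
Slc13a3 window: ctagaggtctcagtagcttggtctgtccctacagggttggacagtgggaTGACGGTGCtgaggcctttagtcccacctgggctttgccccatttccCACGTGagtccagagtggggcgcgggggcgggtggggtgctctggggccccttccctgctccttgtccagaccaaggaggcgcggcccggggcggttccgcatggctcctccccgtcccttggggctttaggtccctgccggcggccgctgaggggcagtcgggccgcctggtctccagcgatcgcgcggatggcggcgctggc
It held an antioxidant element that overlaps a CREB half-site (position -201 from the start) and an E-box (position -154), and no AhR core, so no motif searched was shared with the Slc13a5 windows. The Slc25a1 window held 5 AhR cores, 1 CREB half-site and 1 E-box, and the Slc13a2 window held none of the motifs.

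Cell type markers and libraries were checked beside these levels. The summed intensity of 5 hepatocyte markers was 60562 to 61448 units in KI_MR, 62378 to 63333 in KI_CD, 56498 to 60773 in WT_MR and 60019 to 61357 in WT_CD. It was highest in the KI_CD arrays, as Slc13a5 was, but over a narrow range, and its part in the result was not tested. Markers of kidney tubule, where Slc13a2 and Slc13a3 are abundant, summed over 5 genes to 311 to 323 units in KI_MR, 312 to 336 in KI_CD, 300 to 396 in WT_MR and 343 to 363 in WT_CD.

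Markers of liver zones and of other cell types moved in some of the same contrasts, and their part in the Slc13a5 levels was not tested. The 3 periportal markers summed to 15551 to 19310 units in KI_MR, 21189 to 25513 in KI_CD, 18319 to 19913 in WT_MR and 22619 to 25122 in WT_CD. Of them Cyp2f2, a cytochrome P450 of periportal hepatocytes, had 4452 to 4953 units in KI_MR, 8712 to 10726 in KI_CD, 7867 to 9142 in WT_MR and 11051 to 11583 in WT_CD. Cyp2f2 fell in KI_MR relative to KI_CD (-1.04 ± 0.09, adjusted p = 0.0012) and relative to WT_MR (-0.87 ± 0.09, adjusted p = 0.00486), while Hal, the histidine ammonia-lyase, rose on the averaged genotype contrast by 0.55 ± 0.12 (adjusted p = 0.0355). Unlike Slc13a5, Cyp2f2 was at its highest in WT_CD. The Cyp2f2 call in KI_MR minus KI_CD was lost with the compared arrays alone (adjusted p = 0.104), and the Hal call in 8 of 12 fits that left out an array.

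The 5 pericentral markers summed to 19224 to 22053 units in KI_MR, 21003 to 25857 in KI_CD, 21806 to 22680 in WT_MR and 23668 to 24998 in WT_CD. Their median was -0.57 in KI_MR minus KI_CD, where 0 passed by limma and 3 of 5 had an unadjusted p under 0.05 (7.78% of all genes). Rhbg, an ammonium carrier, fell in KI_MR relative to WT_MR (-1.42 ± 0.23, adjusted p = 0.0314), a call lost in 5 of those 12 fits, and the glutamate carrier Slc1a2 was lower in KI_MR than WT_CD (-0.64 ± 0.13, adjusted p = 0.0254), a call also lost in 5. Kupffer cell markers summed over 7 genes to 5682 to 6571 units in KI_MR, 5138 to 6561 in KI_CD, 5236 to 9506 in WT_MR and 6791 to 8244 in WT_CD. Of these 7, 6 were below 0 in KI_CD minus WT_CD and 7 in the averaged genotype contrast, where 11262 and 12203 of all 19938 genes were. By limma 0 passed in either, with 2 of 7 at an unadjusted p under 0.05 in each (11.2% and 22.0% of all genes). The stellate marker Dcn, a matrix proteoglycan, rose on the averaged genotype contrast by 0.32 ± 0.07 (adjusted p = 0.0324), a call lost in 7 of the 12 fits.

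Endothelial, cholangiocyte, leukocyte and hepatocyte markers had 0 calls by limma in any contrast, and at an unadjusted p under 0.05 each list had at most 1 in a contrast. KI_CD replicate 1 correlated least with its own group across genes (mean r 0.9855, others 0.9887 to 0.9942). Without it, Slc13a5 stood at 1.06 in KI_CD minus WT_CD and at -1.33 in KI_MR minus KI_CD.

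Genes that handle citrate and the reported regulators of Slc13a5 were followed in 10 lists holding 90 other genes, 88 of them measured under a single symbol. In KI_CD minus WT_CD, 1 of the 88 passed the threshold (1.14%, all genes 0.0802%), in WT_MR minus WT_CD 2 (2.27%, all genes 0.326%) and in KI_MR minus WT_MR 1 (1.14%, all genes 0.471%), each of them higher. In KI_MR minus WT_CD 5 were higher and 1 lower (6.82%, all genes 2.98%). In the averaged genotype contrast 2 were higher and 3 lower (5.68%, all genes 2.81%), and in the averaged diet contrast 3 were higher and 2 lower (5.68%, all genes 1.21%). In KI_MR minus KI_CD 0 passed by limma, with 18 of 88 at an unadjusted p under 0.05, where 7.78% of all genes were. Each share rests on at most 6 genes.

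Other organic acid carriers of the plasma membrane differed from Slc13a5 in pattern. Slc22a7, an organic anion carrier of the hepatocyte's blood side, had 109 to 142 units in KI_MR livers, 280 to 648 in KI_CD, 240 to 380 in WT_MR and 484 to 948 in WT_CD. Its mean was lower on the restricted diet in either genotype and lower in knock-in than wild-type livers on either diet. It fell on the average MR minus CD (-1.51 ± 0.22 on the log2 scale, adjusted p = 0.00865) and on the average KI minus WT (-1.0 ± 0.22, adjusted p = 0.0384). The genotype call was lost in 8 of the 12 fits that left out an array (adjusted p 0.0254 to 0.101). Slc16a11 and Slc16a13, neighbouring members of the monocarboxylate carrier family, fell in knock-in livers on that average (-0.44 ± 0.08, adjusted p = 0.0192, and -0.47 ± 0.11, adjusted p = 0.0439), the first call being lost in 2 and the second in 9 of the 12 such fits. The pyruvate and lactate carrier Slc16a7 was higher in KI_MR than WT_CD by 0.75 ± 0.15 (adjusted p = 0.0235), a call lost in 4 of them. Of 8 mitochondrial carriers of citrate, dicarboxylates, aspartate or pyruvate, 0 passed by limma in any contrast, with 5 of 8 at an unadjusted p under 0.05 in KI_MR minus WT_MR, where 14.1% of all genes were. Among them the aspartate-glutamate exchanger Slc25a12 had the largest estimate there, 0.66 (adjusted p = 0.107), and the dicarboxylate carrier Slc25a10 had -0.35. Mpc1, a subunit of the mitochondrial pyruvate carrier, stood at 0.40 in WT_MR minus WT_CD (adjusted p = 0.223).

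Genes that use citrate in the cytosol and make fatty acids from it lay mostly lower in KI_CD than in WT_CD livers. In KI_CD minus WT_CD, 13 of 14 estimates were below 0, as were 11262 of all 19938 genes, with a median of -0.45 against -0.02. By limma 0 passed, with 2 of 14 at an unadjusted p under 0.05 (11.2% of all genes). In KI_MR minus KI_CD, 9 of 14 were above 0, as were 8518 of all genes, with a median of 0.15 against -0.02. Here too 0 passed, with 3 of 14 at an unadjusted p under 0.05 (7.78% of all genes). Acly and Fasn, the fatty acid synthase, are given for their role. Acly had 871 to 1136 units in KI_MR, 847 to 2399 in KI_CD, 913 to 1829 in WT_MR and 878 to 3310 in WT_CD, so that the groups overlapped throughout. Fasn had 2774 to 4685 units in KI_MR, 1219 to 4243 in KI_CD, 2437 to 3614 in WT_MR and 1664 to 5952 in WT_CD, again with overlap. The cytosolic aconitase Aco1 stood at -0.31 in KI_MR minus WT_MR (adjusted p = 0.169) and the cytosolic malate dehydrogenase Mdh1 at -0.31 in KI_MR minus KI_CD (adjusted p = 0.232).

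Srebf1, which encodes the transcription factor SREBP1 that drives fatty acid synthesis genes, was the only one of the 14 to pass in any contrast. It had 1287 to 1318 units in KI_MR livers against 447 to 615 in WT_MR livers, and 937 to 1542 in KI_CD livers against 838 to 1387 in WT_CD livers. It rose in KI_MR relative to WT_MR by 1.24 ± 0.21 on the log2 scale (adjusted p = 0.0401), a call lost in 7 of the 12 fits that left out an array (adjusted p 0.0273 to 0.172). In the citric acid cycle and pyruvate entry, 21 genes were measured and 1 passed in any contrast: Fh1, the fumarate hydratase, was lower on the averaged restricted diet (-0.45 ± 0.09, adjusted p = 0.0339). That call was lost in 8 of the 12 such fits (adjusted p 0.0287 to 0.098). Fh1 had 1477 to 1849 units in KI_MR, 2373 to 2686 in KI_CD, 1743 to 2140 in WT_MR and 2013 to 2721 in WT_CD. Pdk4, the kinase that shuts off pyruvate dehydrogenase, stood at 1.90 in WT_MR minus WT_CD (adjusted p = 0.172) and Dlst, a subunit of 2-oxoglutarate dehydrogenase, at -0.26 in KI_MR minus KI_CD (adjusted p = 0.291).

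**Figure D4:**
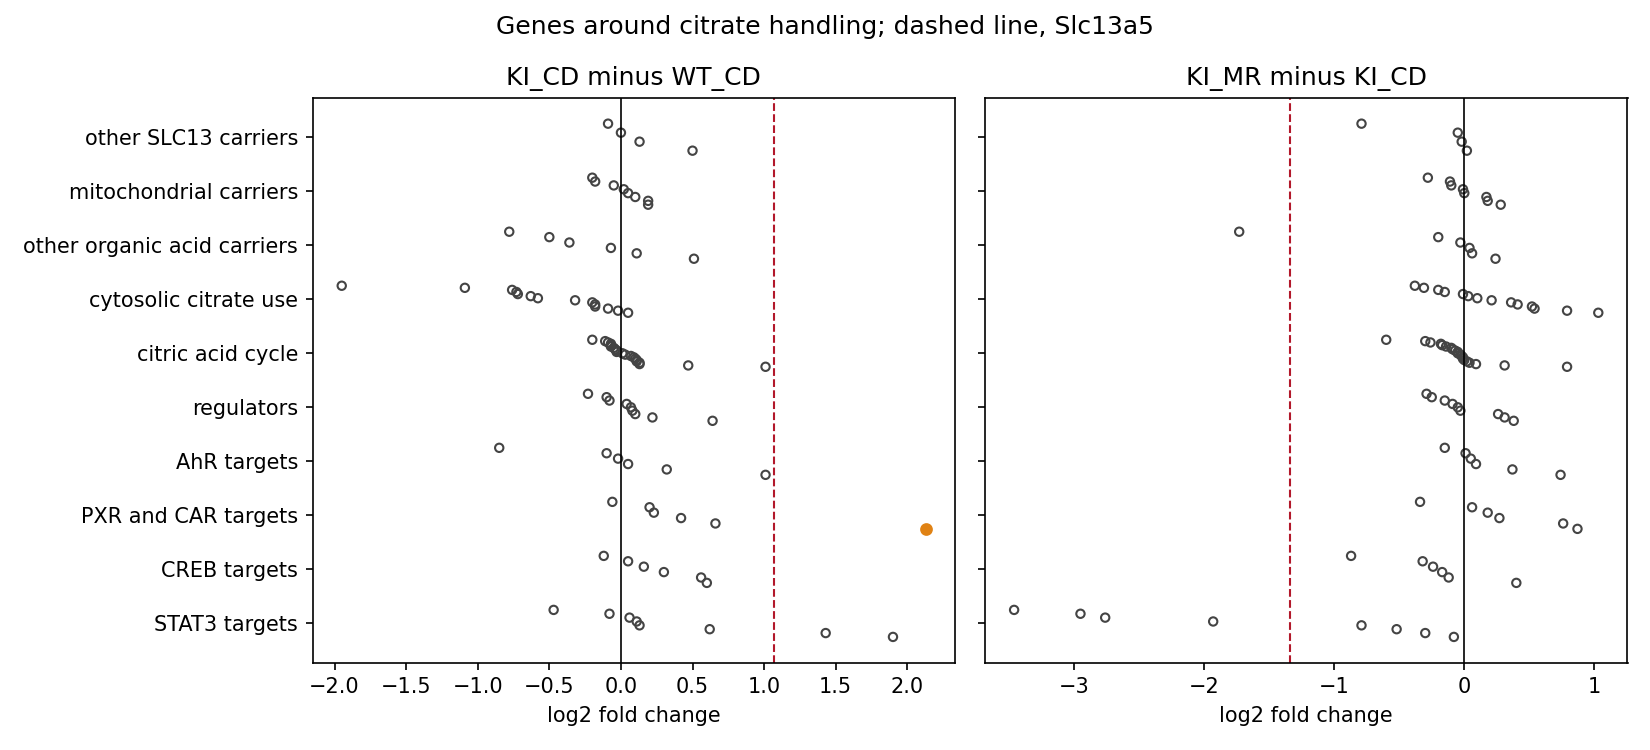
Log2 differences of the genes of 10 lists around citrate handling (circles, one per gene; filled orange, adjusted p under 0.05) in KI_CD minus WT_CD (left) and KI_MR minus KI_CD (right), with Slc13a5 as the dashed line at 1.07 and -1.34. Of the genes shown, Slco1a4 on the left passed the threshold and 0 on the right did, and 13 of 14 genes of cytosolic citrate use lay below 0 on the left.

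Of the 9 receptors and factors reported to regulate Slc13a5 in human or rat hepatocytes (Nr1i2, Rxra, Ahr, Arnt, Gcgr, Creb1, Il6ra, Il6st and Stat3), 0 passed the threshold in any contrast by limma. Over the contrasts 0.0% to 2.98% of all genes passed, so 0 of 9 is near that background. At an unadjusted p under 0.05 the list had 1 in KI_CD minus WT_CD (11.2% of all genes). It had 1 in KI_MR minus KI_CD (7.78%) and 2 in KI_MR minus WT_CD (19.1%). The highest estimate in KI_CD minus WT_CD was that of Stat3, 0.64 (adjusted p = 0.216), with 1874 to 2323 units in KI_CD livers against 1168 to 1480 units in WT_CD livers. These arrays did not overlap, as was so upward for 8.57% of all genes. Nr1i2, which encodes PXR, had an estimate of -0.23 there, and the glucagon receptor Gcgr of 0.10.

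The targets of these regulators that passed the test were not ordered as Slc13a5 was. Of the 6 AhR targets, 0 passed by limma in KI_CD minus WT_CD (0.0802% of all genes). There 3 of 6 had an unadjusted p under 0.05 (11.2% of all genes), and 3 were above and 3 below 0 (median 0.01). In WT_MR minus WT_CD 1 of the 6 passed (0.326% of all genes). That was Nqo1, a quinone reductase, which had 202 to 245 units in WT_MR livers against 43 to 50 in WT_CD livers and rose by 2.21 ± 0.27 (adjusted p = 0.00686). Nqo1 also had 124 to 210 units in KI_MR livers and 59 to 145 in KI_CD livers. Tiparp, a mono-ADP-ribosyltransferase, was higher in KI_MR than WT_CD by 0.68 ± 0.14 (adjusted p = 0.0266), a call lost in 4 of the 12 fits that left out an array. Cyp1a2, the AhR target with the lowest estimate in KI_CD minus WT_CD, stood at -0.85 (adjusted p = 0.253). Of the 6 PXR and CAR targets, 1 passed in KI_CD minus WT_CD (0.0802% of all genes) and 1 in WT_MR minus WT_CD (0.326%). At an unadjusted p under 0.05 there were 2 and 4 of the 6 (11.2% and 8.19% of all genes). In both contrasts the call was Slco1a4, a carrier of bile acids and organic anions. Slco1a4 had 2851 to 3763 units in KI_MR, 1496 to 2251 in KI_CD, 1102 to 2049 in WT_MR and 260 to 648 in WT_CD. It was thus higher, not lower, in KI_MR than in KI_CD. It rose in KI_CD relative to WT_CD by 2.13 ± 0.32 (adjusted p = 0.0393), a call lost in 9 of the 12 fits that left out an array (adjusted p 0.0264 to 0.183). It rose in WT_MR relative to WT_CD by 1.92 ± 0.32 (adjusted p = 0.0333), a call lost in 6 of them (adjusted p 0.0161 to 0.159). The drug exporter Abcb1a rose on the averaged restricted diet by 1.22 ± 0.21 (adjusted p = 0.0185), a call lost in 4 of them. Cyp2b10, a cytochrome P450, stood at 0.63 in WT_MR minus WT_CD (adjusted p = 0.222).

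Of 6 glucagon and CREB targets, 0 passed in KI_CD minus WT_CD or in either diet contrast by limma. The unadjusted p was under 0.05 for 1 of them, in KI_MR minus KI_CD (7.78% of all genes). Their median estimate was 0.23 in KI_CD minus WT_CD (from -0.12 to 0.60) and -0.21 in KI_MR minus KI_CD (from -0.87 to 0.40). Over all genes the median was -0.02 in each. In KI_CD minus WT_CD 5 of 6 were above 0, as were 8567 of all 19938 genes. In KI_MR minus KI_CD 5 of 6 were below 0, as were 11285 of all genes. Nr4a1, an orphan nuclear receptor, stood at 0.60 in KI_CD minus WT_CD (adjusted p = 0.539) and at -0.87 in KI_MR minus KI_CD (adjusted p = 0.574). In KI_CD minus WT_CD the coactivator Ppargc1a stood at 0.56 (adjusted p = 0.543) and the tyrosine aminotransferase Tat at 0.30 (adjusted p = 0.469). Ppargc1a was the 1 of the 6 above 0 in KI_MR minus KI_CD, at 0.40 (adjusted p = 0.923), unlike Slc13a5.

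For targets of interleukin-6 and STAT3, among them the acute phase proteins of the liver, 6 of 8 estimates were above 0 in KI_CD minus WT_CD (median 0.12), all 8 were below 0 in KI_MR minus KI_CD (median -1.36) and 7 of 8 in WT_MR minus WT_CD (median -0.98). By limma 0 of the 8 passed in these 3 contrasts, with 1, 3 and 1 at an unadjusted p under 0.05 (11.2%, 7.78% and 8.19% of all genes). Of all 19938 genes, 8567 were above 0 in KI_CD minus WT_CD, 11285 were below 0 in KI_MR minus KI_CD and 10395 in WT_MR minus WT_CD. Socs3, the feedback inhibitor of STAT3 signalling, had 172 to 250 units in KI_MR, 253 to 349 in KI_CD, 204 to 250 in WT_MR and 151 to 231 in WT_CD, so that its KI_CD arrays too stood above all other arrays, by 0.02 on the log2 scale. It stood at 0.62 ± 0.18 in KI_CD minus WT_CD (adjusted p = 0.245) and at -0.52 ± 0.18 in KI_MR minus KI_CD (adjusted p = 0.437), and its r with Slc13a5 over the 12 arrays was 0.78. Orm2, an acute phase glycoprotein, had 165 to 695 units in KI_MR, 2932 to 6104 in KI_CD, 215 to 2397 in WT_MR and 891 to 5321 in WT_CD. The KI_CD range of Orm2 overlapped that of WT_CD through a WT_CD array of 5321 units. The other WT_CD arrays, at 891 and 912 units, lay below every KI_CD array. Lcn2, an iron-binding acute phase protein, had 286 to 1174 units in KI_MR, 2411 to 6246 in KI_CD, 211 to 2226 in WT_MR and 431 to 6739 in WT_CD. Again KI_CD and WT_CD overlapped through a single WT_CD array, the others having 431 and 491 units.

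Among 9969 genes above the median level, the gene most like Slc13a5 over the 12 arrays was Slc22a18, a carrier-like protein of the organic cation family (Pearson r 0.929, Spearman rho 0.790). Its mean log2 level was 10.21 ± 0.03 in KI_MR, 10.64 ± 0.04 in KI_CD, 10.37 ± 0.02 in WT_MR and 10.29 ± 0.08 in WT_CD (SD, n = 3 each), a narrower range than that of Slc13a5. Next came Golt1a (r 0.899), Kdelr1, the receptor that returns proteins to the endoplasmic reticulum (0.897), Midn (0.895), Pik3r4 (0.891), Dap (0.888), Ldha, the lactate dehydrogenase subunit A (0.862), and Eri3 (0.861). Most unlike it were Cacybp (-0.905), the mitochondrial iron importer Slc25a37 (-0.889), Ces1e (-0.874) and Tmem267 (-0.843). Slc13a3 had an r of 0.834 (rank 14) and Slc25a1 of -0.41. These coefficients rest in part on the KI_CD arrays. Without KI_CD replicates 2 and 1, with replicate 3 kept, r was 0.904 for Slc22a18, 0.769 for Golt1a, 0.616 for Dap and 0.651 for Slc13a3. With group means taken out, r over the 8 most like genes ran from -0.056 for Eri3 to 0.828 for Ldha. It was then 0.411 for Slc22a18 and 0.368 for Slc13a3, so likeness between groups need not hold array by array. By Spearman's rho 1 of the 8 most like genes was the same.

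After each group's mean was taken out, the arrays that were high in Slc13a5 were low in genes of cytosolic citrate use. All 14 genes of that list had an r below 0 within groups (median -0.64, from -0.83 to -0.23), against 8604 of all 19937 other genes (median 0.06). Acaca, the acetyl-CoA carboxylase, had -0.83, Acly -0.81 and Fasn -0.80. All 8 STAT3 targets had an r above 0 (median 0.48, from 0.19 to 0.72). Lists of other kinds did likewise: the 5 kidney markers were all above 0 (median 0.41, from 0.23 to 0.60), as were the 4 cholangiocyte markers (median 0.13), and 4 of 5 endothelial markers were below 0 (median -0.55). Genes of a list share the same 12 arrays and vary together, so these are descriptions of how 12 arrays differ within their groups.

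The genes next to Slc13a5 on chromosome 11 are described as well. The 3 measured neighbours on either side were Txndc17, Med31, 4930563E22Rik, Xaf1, Fbxo39 and Tekt1. In the 4 pairwise contrasts of diet or genotype 0 of these 6 passed by limma, where 0.0802% to 0.471% of all genes did. That 0 is near the background. Over the 6 genes and 4 contrasts, 2 estimates had an unadjusted p under 0.05. Over all genes, 7.78% to 14.1% had such a p in these contrasts. The neighbours' estimates ranged from -0.42 to 0.19, and the smallest adjusted p was 0.422. The lowest was that of Xaf1 in KI_MR minus KI_CD, which had 92 to 107 units in KI_MR livers against 114 to 151 units in KI_CD livers.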

How the data were processed

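The deposited table held linear intensities of 35512 probe sets on 12 arrays, whole numbers from 10 to 20042 with array medians of 82 to 90 units. The authors' background correction and scaling are not given in the sources used here. Of the probe sets, 21789 carried 1 gene symbol, 1621 several and 12102 none. Genes with several probe sets (999) were represented by the one with the highest mean, which gave 19938 genes, and 19856 of them matched RefSeq by Entrez identifier. Arrays give no read depth, and their number limits the precision.

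The log2 of the intensity was taken with no pseudocount and no further scaling. A model of 4 group means was fitted in limma 3.58.1 (R 4.3.3) with 8 residual and 3.14 prior degrees of freedom. Tests were two-sided, adjusted by Benjamini-Hochberg over all genes within a contrast, with a threshold of 0.05, and intervals cover 95%. On simulated data for KI_MR minus WT_MR (19938 genes, 200 changed per run), 54.8% of log2 changes of 0.5 and 90.4% of changes of 1 were recovered, and 5.29% of calls were false. The simulated noise was normal and independent between genes, and planted changes reached 4 on the log2 scale. These shares therefore need not hold for contrasts with few calls.

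The carriers, the lists and the tests were chosen with earlier results of these data known. List counts are therefore descriptive, and the p-values of the carriers are not free of that choice. Named genes were the 4 carriers, list members past the threshold in any contrast, the 3 of each pathway list with the smallest p, the 8 genes most like Slc13a5 and the 4 most unlike it (predicted loci left out), and 3 neighbours on each side. The rule also takes 3 genes of each marker list, which are given here by their list's values. Acly, Fasn, Acaca, Orm2, Cyp1a2, Nr1i2, Gcgr, Slc43a1, Nnmt and Agxt were added for their role, estimate or rank where that rule did not name them. Likeness was Pearson's r over 12 arrays.

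Replicate numbers are shared by the groups. Deviations of arrays of the same number from their group means correlated at -0.082 to 0.279 over 18 pairs (mean 0.099). The correlation was not above 0.1 in every pair. Deviations sum to 0 within a group, so the mean of -0.05 for other numbers follows from it and is no separate comparison. Whether arrays of the same number share a batch cannot be told from these values. The labels do not state that the numbers pair animals, so the numbers were not taken as pairs. A replicate block was run as a setting. The settings varied were the scaling (quantile or median centring), a filter on the dimmest 25% of genes, the mean of a gene's probe sets, a trended and robust prior, the compared arrays alone, a replicate block and each array left out. Start windows came from RefSeq (GRCm38.p6). Tables were made with pandas 2.3.3 and numpy 2.4.6 under Python 3.11.15, and figures with matplotlib 3.10.9.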

Additional observations from a re-analysis of the deposited data

How the results depend on the processing

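The 6 differences of Slc13a5 moved by less than its SD within groups in all alternatives run, and kept their sign with each array left out. With each array left out in turn they were 0.95 to 1.22 on the log2 scale for KI_CD minus WT_CD, -1.49 to -1.22 for KI_MR minus KI_CD and -1.40 to -1.13 for the interaction. Over 23 estimates of the 4 carriers, 418 of 431 alternative values were counted as unchanged, and 13 turned sign, all of estimates near 0. For the tested carriers, unchanged meant the same direction, or a value rounding to 0, and the same side of the threshold. For Slc13a5, which was not tested, it meant a move of less than the SD within groups. A turned sign was counted for Slc13a5 only where the difference was large against its SE. Slc25a1 in KI_MR minus KI_CD was 0.06 with quantile normalization, 0.02 with median centring and -0.08 to 0.08 with an array left out. Leaving out arrays gave ranges across 0 also for Slc13a2 (-0.16 to 0.09 in KI_MR minus KI_CD, -0.05 to 0.07 in WT_MR minus WT_CD, -0.17 to 0.08 in the interaction), for Slc13a3 in WT_MR minus WT_CD (-0.27 to 0.05) and for Slc25a1 (-0.01 to 0.06 in WT_MR minus WT_CD, -0.11 to 0.05 in the interaction).

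Counts of genes called depended more on the setting. In KI_CD minus WT_CD they were 16, and 31 without the dimmest genes, 26 with the trended robust prior, 0 from the compared arrays alone and 2 to 32 with an array left out. In KI_MR minus KI_CD they were 35, and 18 with median centring, 0 from the compared arrays alone and 7 to 94 with an array left out, 94 being without KI_CD replicate 1. In WT_MR minus WT_CD they were 65, and 131 from the compared arrays alone and 17 to 199 with an array left out. In KI_MR minus WT_MR they were 94, and 58 with median centring, 15 from the compared arrays alone, 177 with the replicate block and 3 to 226 with an array left out. In KI_MR minus WT_CD they were 595, and 896 with the block and 146 to 876 with an array left out. They were 0 to 3 for the interaction, 138 to 1945 for the averaged genotype contrast (561; 960 with the block) and 112 to 470 for the averaged diet contrast (241). Fits on the compared arrays alone had fewer residual degrees of freedom, and their 0 calls came with 2734 genes at an unadjusted p under 0.05 in KI_CD minus WT_CD and 1472 in KI_MR minus KI_CD.

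Members of the 10 lists called in KI_CD minus WT_CD were 1, and 0 with quantile normalization, from the compared arrays alone and with the block, and 0 to 1 with an array left out. In KI_MR minus KI_CD they were 0, and 1 without the dimmest genes and 0 to 1 with an array left out. Leaving out arrays gave 1 to 3 in WT_MR minus WT_CD, 0 to 2 in KI_MR minus WT_MR (2 with the block), 1 to 9 in the averaged genotype contrast (5; 3 with quantile normalization) and 2 to 9 in the averaged diet contrast. Pairing arrays by number in the replicate block left the Slc13a5 estimates at 1.07 and -1.34 and gave Slc13a3 an adjusted p of 0.15 in KI_MR minus KI_CD. Of the list genes described, Nqo1 kept its call in WT_MR minus WT_CD in all 12 fits with an array left out. So did Cyp2f2 in KI_MR minus KI_CD and in KI_MR minus WT_MR, and Slc22a7 in the averaged diet contrast. With 3 arrays a group, differences near 0.5 on the log2 scale are often missed. The causes of the other changes between settings were not tested.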
